A study of Mus musculus with 6 samples.

Results

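The 31 genes described here make cholesterol and fatty acids or sense, store and move sterols. They were chosen by name and role from the 32285 genes in the count tables, and each matched 1 row. They comprise 17 enzymes of sterol synthesis (Hmgcs1, Mvk, Pmvk, Mvd, Idi1, Fdps, Fdft1, Sqle, Lss, Cyp51, Msmo1, Nsdhl, Hsd17b7, Ebp, Sc5d, Dhcr7 and Acat2), 5 sterol sensors or SREBP factors (Srebf1, Srebf2, Scap, Insig1 and Insig2), 6 genes of the liver X receptor (LXR) and of sterol storage, transport and efflux (Nr1h2, Nr1h3, Abcg1, Soat1, Stard4 and Mylip) and 3 enzymes of fatty acid synthesis (Acaca, Fasn and Scd2). They were described by single-cell RNA sequencing in immune cells of the midbrain of male Line 61 mice, which carry human wild-type α-synuclein under the Thy1 promoter, mainly a neuronal promoter. The mice were injected in both striata at 12 to 15 weeks of age with PBS, α-synuclein monomer or pre-formed fibrils (PFF), and the midbrain was taken 6 weeks later. Mice given PFF received the JAK1/2 inhibitor AZD1480 at 25 mg/kg/day by gavage (PFF + AZD1480) or its DMSO vehicle (PFF + VH), from week 2 for 4 weeks. All groups carried the transgene, and no non-transgenic mice were analysed here. Ventral midbrains were pooled, 3 to 5 to a sample, and live CD45+ cells were sorted, so the cells are those that carry this leukocyte surface protein.

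There was 1 library for each of the 4 conditions. Cells of the PFF + VH library carried 4 hashtag antibodies and those of the PFF + AZD1480 library 5, equal to the replicate numbers of the design, and each hashtag was taken as 1 replicate. The labels do not tie hashtags to animals, so the p-values measure the spread between hashtags. PBS and monomer had no hashtags, and their values have no replicate check. Total counts of unique molecular identifiers (UMIs, each standing for 1 captured RNA molecule) were between 99658216 and 116440449 per library, and 13021 to 34436 cells were kept. The PFF + VH library stood apart, with a median of 2306 UMIs per cell against 6616 to 7028 in the others, and 52.0% of its cells had a single hashtag against 81.0% in PFF + AZD1480. Between 45 and 151 of the kept cell barcodes were shared by any pair of libraries. All differences between libraries in level therefore stand beside this difference in depth, and its part in them was not tested.

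Cholesterol is made from acetyl-CoA through mevalonate, isoprenoids, squalene and lanosterol. When sterols in the endoplasmic reticulum are low, SCAP carries the SREBP factors to the Golgi for cleavage, and the released factor switches on the genes of synthesis, whereas INSIG1 and INSIG2 retain the complex when sterols are plentiful. Oxysterols activate LXR, which drives efflux genes such as Abcg1 and Mylip, a ubiquitin ligase that degrades lipoprotein receptors. In the brain, cholesterol is made locally because lipoproteins of the blood do not cross the barrier, and macrophages take in sterol with the myelin and debris they engulf.

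Cells were assigned to a class by the UMIs of marker genes that include none of the 31 genes: 72002 were microglia, 864 border macrophages, 803 lymphocytes, and 3436 remained unassigned. As the classes were set by these markers, each class carried its own. Levels of the lists by class therefore do not check the class names. Border macrophages held between 8180 and 11229 CPM (the UMIs of a gene per 1000000 UMIs of the class) of the border macrophage list, against 21.8 to 57.3 CPM in microglia. They also held 1600 to 2278 CPM of the microglial list, against 9369 to 11408 CPM in microglia, and 25.9% of them lay near the marker limits. The part of microglial RNA and of doublets in their values was not tested. Counts were summed over the cells of a class, and in such sums a gene in fewer cells and less RNA per cell cannot be told apart. Values here count the 3′ ends of transcripts and are compared within a gene, not between genes.

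Over the hashtags of both PFF libraries, border macrophages held more RNA of a group of sterol synthesis genes than microglia did. The sterol enzymes named next were tested only in the fit with no filter on low counts, given below. With PFF + VH hashtags only, Idi1 alone of the higher genes was called. Idi1, the isomerase that starts isoprenoid assembly, Sqle, which makes squalene epoxide, Cyp51 and Msmo1, both of lanosterol demethylation, Fdps, which makes farnesyl diphosphate, and Srebf2, the SREBP that drives sterol synthesis, were higher. Mylip and Abcg1, both LXR targets, were lower. The comparison was fitted by edgeR's quasi-likelihood test on counts summed per hashtag, with the hashtag as a block, over the 8 hashtags with at least 10 cells in every class, and Benjamini-Hochberg adjustment over all genes tested. With the usual filter on low counts, 3921 genes were tested and 51.2% were called (26% higher and 25.2% lower in border macrophages), but only 5 of the 31 genes passed that filter: Srebf2, Ebp, Abcg1, Soat1 and Mylip. Srebf2, Abcg1 and Mylip were called and Ebp and Soat1 were not. Hashtag 3 of PFF + AZD1480, with 4 lymphocytes, took no part in the class fits. Its 11 border macrophages held only 39579 UMIs in all, and its values are among those printed below.

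So that every gene was tested, the same fit was run with no filter on low counts and with its scaling taken from the filtered genes, a choice made after seeing that few of the genes passed. This is the fit meant by no filter unless scaling from all genes is named. Of 24002 genes with at least 1 UMI, 7.73% were then called higher in border macrophages and 6.22% lower. The filtered fit, over better counted genes, called 26% higher and 25.2% lower. Of the 31 genes, 9 were called higher and 2 lower, 22 lay above 0 and 9 below, and their median log2 fold change was +0.49 against -0.45 over all genes tested, which include genes with 1 UMI, and 0.01 over all genes that passed the filter. With scaling from all genes in place of the filtered ones, 8 were called higher and 3 lower, where 5.86% of all genes were higher and 8.62% lower, with Nr1h2 lost (adjusted p = 0.0826) and Scd2 gained as lower (adjusted p = 0.0117) by edgeR's quasi-likelihood test (Benjamini-Hochberg). By role, 5 of 17 sterol enzymes were called higher (Idi1, Sqle, Cyp51, Fdps and Msmo1) and none lower. Among the 5 sensors and SREBP factors, Srebf2 and Insig1 were called higher. Among the 6 LXR, storage and transport genes, Nr1h2 (LXRβ) and Stard4, a cytosolic sterol carrier, were called higher and Abcg1 and Mylip lower, and none of the 3 fatty acid enzymes was called in the fit with scaling from the filtered genes.

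For Idi1, the hashtags of PFF + VH held 29.0, 4.87, 48.7 and 21.3 CPM in border macrophages, and those of PFF + AZD1480 held 38.3, 30.6, 126, 16.1 and 120 CPM. Microglia held between 3.20 and 5.70 CPM of Idi1 in every hashtag. One hashtag of PFF + VH lay within the microglial range and all others above it. The log2 fold change of Idi1 was 2.83 (SE 0.37) with an adjusted p of 8.74e-11 by edgeR's quasi-likelihood test (Benjamini-Hochberg). It was the only gene of synthesis called in every one of the 13 other settings of this fit.

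For Sqle, border macrophages of PFF + VH held 7.26, 0, 0 and 0 CPM and those of PFF + AZD1480 28.7, 20.4, 25.3, 16.1 and 27.7 CPM, against 0.526 to 2.15 CPM in microglia. Every PFF + AZD1480 hashtag stood above microglia, while 3 of 4 PFF + VH hashtags had no UMI of Sqle. These are small counts, 1 UMI over the 4 PFF + VH hashtags and 18 over the 5 of PFF + AZD1480. For Cyp51, border macrophages held 21.8, 14.6, 24.4 and 10.7 CPM in PFF + VH and 67.0, 35.7, 25.3, 28.1 and 83.1 CPM in PFF + AZD1480, against 9.64 to 16.1 CPM in microglia. The groups overlapped only in hashtags of PFF + VH. By edgeR's quasi-likelihood test (Benjamini-Hochberg), the log2 fold change was 3.11 for Sqle (SE 0.55, adjusted p = 1.84e-06) and 1.56 for Cyp51 (SE 0.31, adjusted p = 2.69e-05). With PFF + VH hashtags only, the log2 fold change was 0.52 for Sqle and 0.56 for Cyp51 (adjusted p = 0.966 for each in that edgeR test). Hashtag values of Idi1, Sqle, Cyp51 and Stard4 are printed because of their size, which was seen first.

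Srebf2 stood above microglia in most hashtags. Its border macrophage levels were 29.0, 19.5, 36.5 and 32.0 CPM in the PFF + VH hashtags and 76.6, 91.7, 101, 88.4 and 139 CPM in those of PFF + AZD1480, while microglia held 20.6 to 25.7 CPM and 20.8 to 30.0 CPM. All PFF + AZD1480 values lay above the microglial range, and 3 of the 4 PFF + VH values lay above the microglial values of that library. In the filtered fit the log2 fold change of Srebf2 was 1.34 (SE 0.25, adjusted p = 4.87e-05 by edgeR's quasi-likelihood test (Benjamini-Hochberg)). With PFF + VH hashtags only and no filter it was 0.25. Stard4 held 0, 0, 0 and 21.3 CPM in PFF + VH and 28.7, 40.7, 25.3, 40.2 and 9.24 CPM in PFF + AZD1480, against 2.80 to 11.8 CPM in microglia. Its log2 fold change was 1.71 over both libraries, but -0.94 over the PFF + VH hashtags alone (adjusted p = 0.966 in the same edgeR test with Benjamini-Hochberg adjustment).

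Mylip and Abcg1 went the other way. Mylip held 116, 146, 183 and 213 CPM in border macrophages of PFF + VH and 105, 117, 152, 109 and 148 CPM in those of PFF + AZD1480. In microglia the 4 PFF + VH hashtags held 347 to 394 CPM and the 5 PFF + AZD1480 hashtags 467 to 558 CPM, so the classes did not overlap. Abcg1, which exports cholesterol to lipoproteins, held 21.8, 34.1, 73.1 and 53.3 CPM in border macrophages of PFF + VH and 4.79, 20.4, 50.5, 12.1 and 36.9 CPM in those of PFF + AZD1480. Microglia held 55.9 to 88.7 CPM of Abcg1, and the classes overlapped in PFF + VH only. By edgeR's quasi-likelihood test (Benjamini-Hochberg), the log2 fold change was -1.62 for Mylip (SE 0.15, adjusted p = 1.94e-10) and -1.43 for Abcg1 (SE 0.27, adjusted p = 5.28e-05) in the filtered fit. With PFF + VH hashtags only and no filter, Abcg1 was at -0.70 (adjusted p = 0.332 in that edgeR test) and Mylip at -1.25. The plot of CPM by hashtag shows both patterns.

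**Figure D1:**
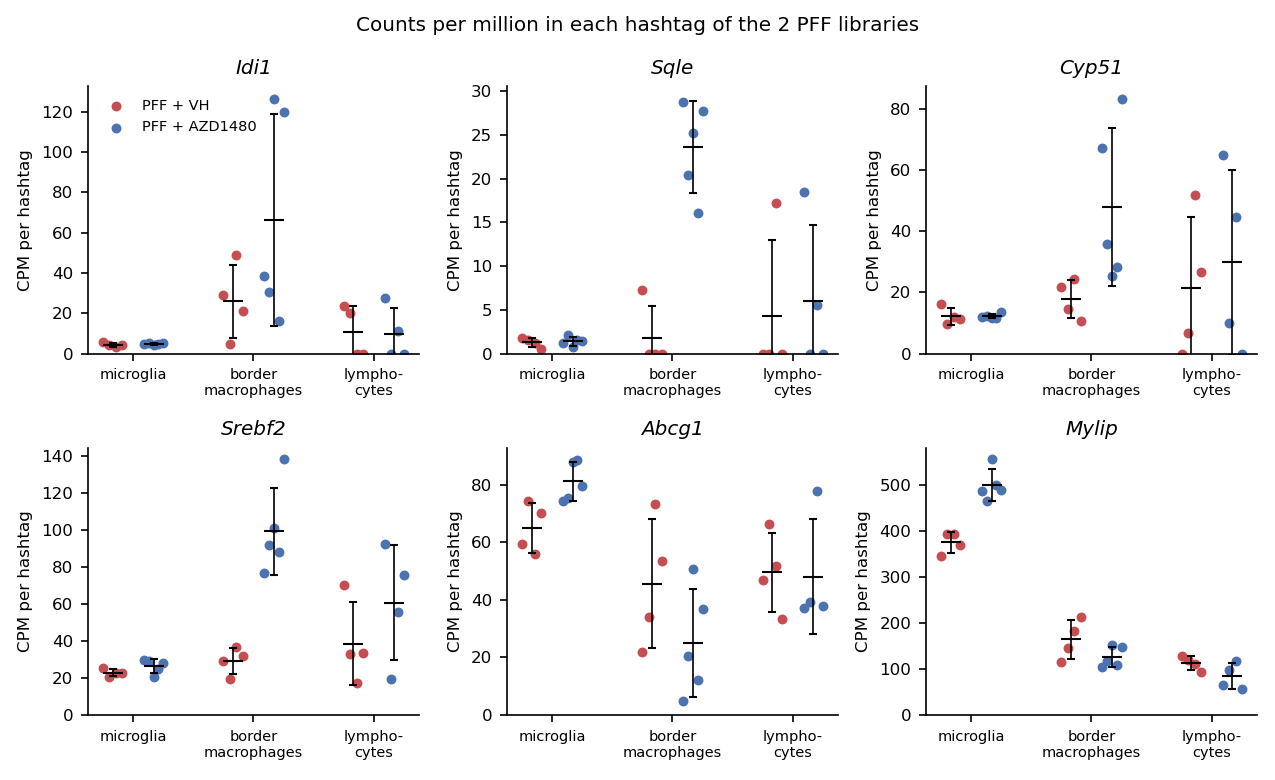
Level in CPM (vertical axis) of Idi1, Sqle, Cyp51, Srebf2, Abcg1 and Mylip in microglia, border macrophages and lymphocytes, with 1 point per hashtag of either PFF library and bars for the mean ± SD. Mylip is lower in border macrophages than in microglia in every hashtag, whereas Sqle is at 0 in border macrophages of 3 of the 4 PFF + VH hashtags and above microglia in all 5 of PFF + AZD1480.

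The remaining genes called between border macrophages and microglia moved less. Fdps was higher by a log2 fold change of 1.24 (SE 0.32), Msmo1 by 1.12 (SE 0.26), Insig1 by 0.88 (SE 0.26) and Nr1h2 by 0.79 (SE 0.25), with adjusted p-values between 0.000513 and 0.0151 in edgeR's quasi-likelihood test (Benjamini-Hochberg). Under a stricter class rule and with PFF + VH hashtags only, Fdps lost the call at log2 fold changes of 0.75 and 0.85 and Msmo1 at 0.65 and 0.68. Insig1 lost it at 0.89 under the stricter rule, 0.35 with PFF + VH hashtags only and 0.64 without PFF + AZD1480 hashtag 1. Nr1h2 was called in 8 of the 13 other settings, and Stard4 also lost the call without PFF + AZD1480 hashtag 4. The fold changes of the 20 genes not called were between -0.92 (Scd2, which desaturates stearate) and 1.19 (Lss, lanosterol synthase). With PFF + VH hashtags alone, 2 of the 31 genes were called, Idi1 and Mylip, where 7.58% of all genes were.

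The PBS and monomer libraries took no part in these fits, and they showed the same order for most of the genes called. Border macrophages held 7.65 times the Idi1 of microglia in PBS and 6.04 times in monomer, against 3.69 times with PFF + VH and 8.89 times with PFF + AZD1480. For Cyp51 the ratios were 4.03, 3.60, 1.72 and 3.72 in the same order, and for Srebf2 2.15, 2.75, 1.12 and 3.06. Thus PFF + VH held the lowest of the 4 ratios for all 3 of these genes. For Mylip, the ratios were 0.302, 0.223, 0.471 and 0.248. Nr1h2 was below microglia in PBS, at 0.925 times, and above it in the other libraries. Among the 17 sterol enzymes, 10 in PBS, 12 in monomer and 11 in PFF + AZD1480 were at least 1.5 times the microglial level, as were 6 of the 15 with a UMI in border macrophages of PFF + VH. Of all the 31 genes, those at least 1.5 times higher were 14 of 30, 16 of 31, 7 of 28 and 16 of 31 in the order of PBS, monomer, vehicle and AZD1480, against 24.7%, 24%, 25% and 22.1% of all genes. In the same order, 6, 5, 7 and 3 were at least 1.5 times lower, against 22.3%, 25.5%, 21.15% and 24.7% of all genes.

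**Figure D2:**
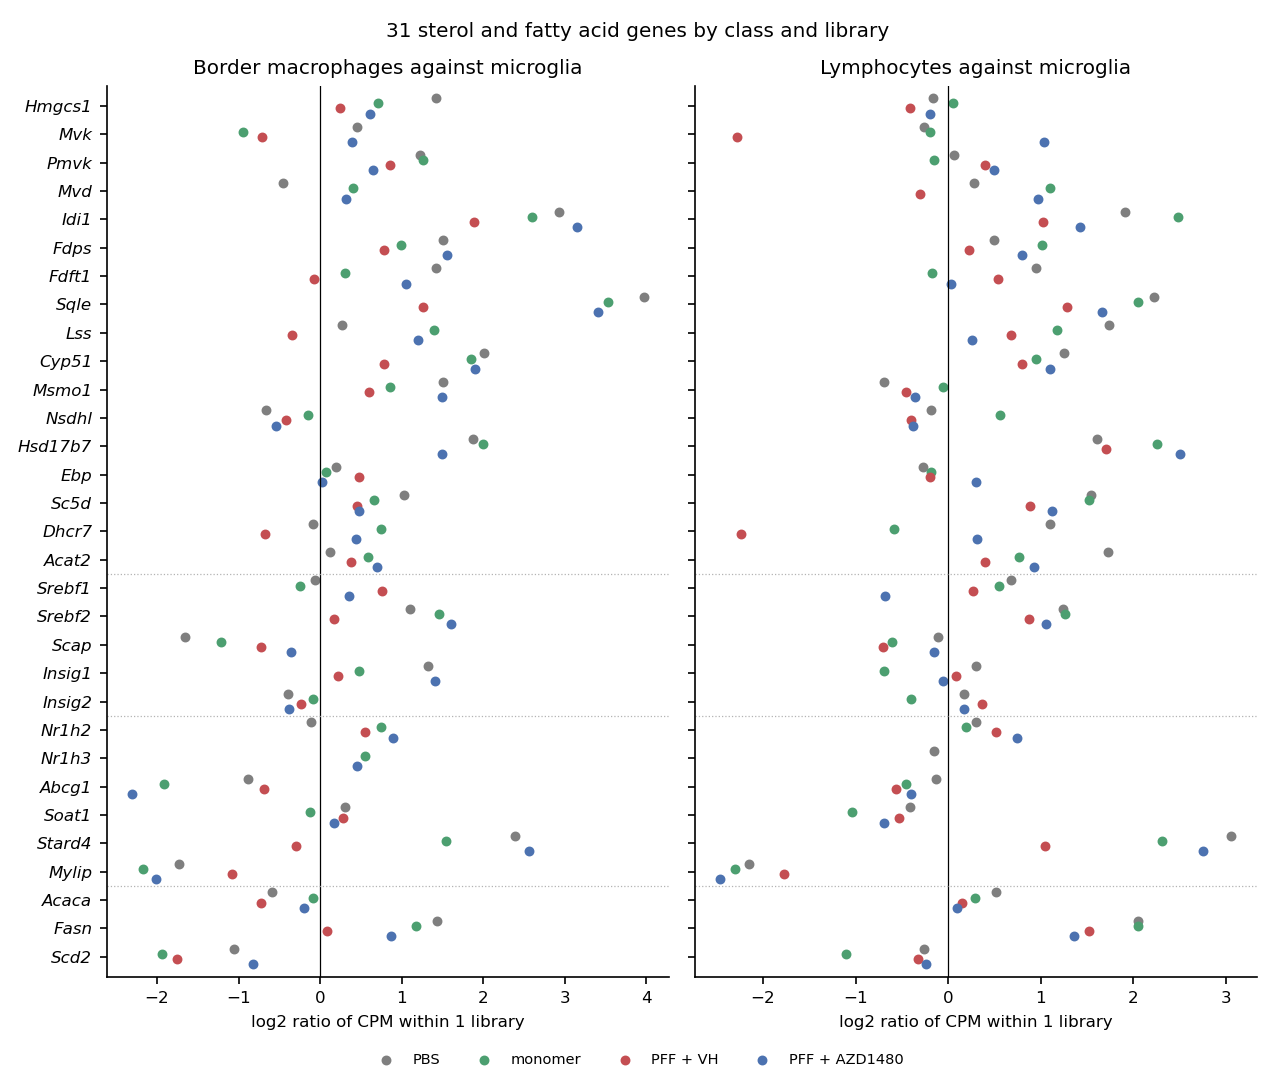
Log2 ratio of the CPM of border macrophages, and of lymphocytes, to that of microglia within each of the 4 libraries (horizontal axis) for the 31 genes (vertical axis, ordered by role, with dotted lines between roles). Idi1 and Sqle lie to the right of 0 in all 4 libraries and Mylip to the left, and no test was made because each library is 1 sample.

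Lymphocytes held less Mylip than microglia, and more Srebf2 in most settings. In the filtered fit 70.3% of the genes tested were called, and Srebf2 (log2 fold change 0.92), Soat1, which esterifies cholesterol for storage (-0.52), and Mylip (-2.04) were the 3 called of 5 tested. Mylip held 129, 120, 112 and 93.5 CPM in PFF + VH and 64.8, 98.5, 117 and 56.6 CPM in the 4 PFF + AZD1480 hashtags with enough lymphocytes, all below every microglial value. With no filter, 13.5% of all genes were called higher and 10.3% lower, and 6 of the 31 genes were called higher and 1 lower. The 6 were Cyp51 (log2 fold change 1.24), Sc5d, a late desaturase of the sterol ring (1.16), Hsd17b7, a ketoreductase of the same branch (2.19), Srebf2 (0.92), Stard4 (2.09) and Fasn, the fatty acid synthase (1.80). Adjusted p-values of the 6 were between 2.17e-05 and 0.0080 in edgeR's quasi-likelihood test (Benjamini-Hochberg). With scaling from all genes, 3 of the 31 were called higher (Hsd17b7, Stard4 and Fasn) and 3 lower (Mylip, Abcg1 and Soat1), where 9.72% of all genes were higher and 15.6% lower, and Srebf2 was at 0.52 (adjusted p = 0.185 in that edgeR test). With no filter, Srebf2 was also lost without cells with oligodendrocyte UMIs (adjusted p = 0.114) and without PFF + AZD1480 hashtag 1 (0.0767), and Soat1 was not called (0.0596). In the filtered fit Soat1 was lost without PFF + VH hashtag 1 (0.0768), without PFF + AZD1480 hashtag 2 (0.0677) and without cells with oligodendrocyte UMIs (log2 fold change -0.28). Of the 13 other settings of the fit with no filter, Mylip was called in 13, Stard4 in 12, Cyp51 and Hsd17b7 in 11, Srebf2 and Fasn in 10 and Sc5d in 7. Sc5d was lost without cells with oligodendrocyte UMIs (log2 fold change 0.63) and under the stricter class rule, Cyp51 without PFF + AZD1480 hashtag 1, and Fasn without PFF + VH hashtag 3. Oligodendrocyte markers were at 182 to 215 CPM in lymphocytes of the 4 libraries, against 84.9 to 105 CPM in microglia. With PFF + VH hashtags alone 1 of the 31 was called, where 16.4% of all genes were.

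Because 5 of the 17 sterol enzymes were called higher in border macrophages (1 of them, Idi1, with PFF + VH hashtags only), the promoters of the 31 genes were read from RefSeq on GRCm38.p6, the assembly also called mm10. Of the 31 genes, 25 had an entry, with 34 promoters among them, and Fdps, Fdft1, Sqle, Stard4, Abcg1 and Scd2 had none. The 250 bases before the start of transcription of 6 genes are given 5′ to 3′ on the strand of the gene: Idi1, Cyp51, Msmo1 and Srebf2, which stood higher in border macrophages, Mylip, which stood lower, and Hmgcs1, the synthase that makes HMG-CoA, which holds the sterol regulatory word. Capitals mark TCACNCCAC, a form of the sterol regulatory element bound by SREBP, and CCAAT, bound by NF-Y, each on either strand.
Idi1 (chr13:8885356-8885605, plus strand): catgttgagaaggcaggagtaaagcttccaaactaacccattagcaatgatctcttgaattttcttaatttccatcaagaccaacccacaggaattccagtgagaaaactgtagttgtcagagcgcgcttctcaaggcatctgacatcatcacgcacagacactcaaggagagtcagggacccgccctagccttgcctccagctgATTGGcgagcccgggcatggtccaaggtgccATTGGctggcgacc
Cyp51 (chr5:4104698-4104947, minus strand): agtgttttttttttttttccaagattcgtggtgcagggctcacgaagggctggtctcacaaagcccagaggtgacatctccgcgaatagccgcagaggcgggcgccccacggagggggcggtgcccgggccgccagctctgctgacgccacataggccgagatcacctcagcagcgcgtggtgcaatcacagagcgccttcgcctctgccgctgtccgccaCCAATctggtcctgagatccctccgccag
Msmo1 (chr8:64733579-64733828, minus strand): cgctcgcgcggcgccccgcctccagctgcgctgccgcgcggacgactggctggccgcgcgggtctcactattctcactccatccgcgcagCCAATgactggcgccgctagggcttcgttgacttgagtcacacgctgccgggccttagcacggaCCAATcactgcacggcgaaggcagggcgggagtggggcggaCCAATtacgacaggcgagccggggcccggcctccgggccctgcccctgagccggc
Srebf2 (chr15:82147019-82147268, plus strand): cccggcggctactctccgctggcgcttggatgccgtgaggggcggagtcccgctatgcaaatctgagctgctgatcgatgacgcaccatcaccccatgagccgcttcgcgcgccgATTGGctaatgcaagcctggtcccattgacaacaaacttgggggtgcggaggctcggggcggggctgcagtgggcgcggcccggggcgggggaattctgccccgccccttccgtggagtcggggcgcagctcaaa
Mylip (chr13:45389492-45389741, plus strand): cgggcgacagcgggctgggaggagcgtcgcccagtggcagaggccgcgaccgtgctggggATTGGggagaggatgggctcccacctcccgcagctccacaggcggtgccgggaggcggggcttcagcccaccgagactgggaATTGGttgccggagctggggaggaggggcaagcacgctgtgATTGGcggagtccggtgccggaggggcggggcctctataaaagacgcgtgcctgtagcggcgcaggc
Hmgcs1 (chr13:119690101-119690350, plus strand): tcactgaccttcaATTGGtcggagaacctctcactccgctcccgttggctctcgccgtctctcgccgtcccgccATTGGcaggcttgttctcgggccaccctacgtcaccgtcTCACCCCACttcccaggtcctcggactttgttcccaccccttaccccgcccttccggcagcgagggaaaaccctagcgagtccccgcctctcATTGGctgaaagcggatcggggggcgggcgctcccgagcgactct

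The word TCACNCCAC was in the 250 bases of 1 of the 25 genes, Hmgcs1, where it started 137 bases before the start of transcription, against 1.22% of all 27025 genes with an entry (1.05% of their 32851 promoters of the same length). The word CCAAT was in 20 of the 25 genes (80.0%), against 37.5% of those genes. Both words were searched on both strands, and neither word contains the other. CCAAT stood in the promoters of Mylip, lower in border macrophages, as well as in those of Idi1, Cyp51, Msmo1 and Srebf2. A match is a description of the letters and not of a bound site. Other forms of the sterol regulatory element were not searched, so a gene without the word may still hold one.

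In microglia, the 31 genes differed little between the 4 libraries. The highest library was less than 1.5 times the lowest for 27 of the 31, and the exceptions were Insig1, Fdft1, Nr1h3 and Sqle. Sqle was at 0.765 to 1.57 CPM and Nr1h3, which encodes LXRα, at 0.577 to 0.895 CPM. Insig1 held 19.1 CPM in PBS and 17.9 in monomer, against 26.9 with PFF + VH and 24.5 with PFF + AZD1480. It was the 1 gene of the 31 at least 1.5 times higher in PFF + VH than in monomer, where 12.1% of all genes were at least 1.5 times higher and 4.11% lower. Between monomer and PBS no gene of the 31 passed 1.5 times, against 3.43% of all genes higher and 5.3% lower.

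AZD1480 was compared with its vehicle in microglia over 4 against 5 hashtags, with all 31 genes tested. Mylip and Abcg1 were higher with AZD1480, Ebp, the sterol isomerase, was lower, and no other gene of the 31 was called. These 3 are 9.68% of the genes, below the 26.1% called among all 13740 genes tested, and the median log2 fold change of the 31 was -0.03. Mylip held 347, 394, 394 and 371 CPM in the PFF + VH hashtags and 487, 467, 558, 502 and 491 CPM in those of PFF + AZD1480. The groups did not overlap, with means of 376 ± 22.6 CPM (SD, n = 4) and 501 ± 34.1 CPM (SD, n = 5). The log2 fold change of Mylip was 0.36 (SE 0.07) with an adjusted p of 0.0033 by edgeR's quasi-likelihood test (Benjamini-Hochberg).

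Abcg1 held 59.3, 74.3, 55.9 and 70.1 CPM in PFF + VH and 74.4, 75.4, 87.7, 88.7 and 79.4 CPM in PFF + AZD1480, and the groups touched without overlap. Its means were 64.9 ± 8.69 CPM (SD, n = 4) and 81.1 ± 6.73 CPM (SD, n = 5). The fitted log2 fold change of Abcg1, which uses TMM scaling and not these CPM, was 0.27 (SE 0.09). Its adjusted p was 0.0436 by edgeR's quasi-likelihood test (Benjamini-Hochberg). That call was lost without any one of 6 hashtags (PFF + VH 1, 3 or 4, or PFF + AZD1480 3, 4 or 5), with adjusted p-values of 0.0539 to 0.127, and also with MULTIseqDemux hashtag calls (0.0924) and with the hashtag number as a block (0.0569). Ebp held 65.5, 61.6, 63.7 and 68.7 CPM in PFF + VH and 58.9, 54.8, 59.5, 60.1 and 58.2 CPM in PFF + AZD1480, all of the latter below all of the former. Its log2 fold change was -0.21 (SE 0.04, adjusted p = 0.0057 in the same edgeR test with Benjamini-Hochberg adjustment). Among all genes, 24% had hashtag groups that did not overlap.

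Set beside the libraries without hashtags, the microglial level of Mylip was 511 CPM in PBS and 513 in monomer, against 381 with PFF + VH and 494 with PFF + AZD1480, so PFF + VH was the one that stood apart. When each cell was thinned to 1000 UMIs, the share of microglia with a Mylip UMI was 36.5%, 36.9%, 30.1% and 35.7% in the same order, against 83.8%, 81.6%, 54.8% and 79.1% before thinning. Abcg1 was at 75.7, 80.8, 66.9 and 82.2 CPM across these libraries, and Ebp at 66.5, 67.7, 63.9 and 58.6 CPM. For Mylip and Abcg1 the lowest library was PFF + VH, and for Ebp it was PFF + AZD1480. Gm42418, a transcript that overlaps ribosomal RNA genes, was at 11048 to 11956 CPM in the PFF + VH hashtags and 8301 to 8603 CPM in those of PFF + AZD1480. Its part in these differences was not tested.

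**Figure D3:**
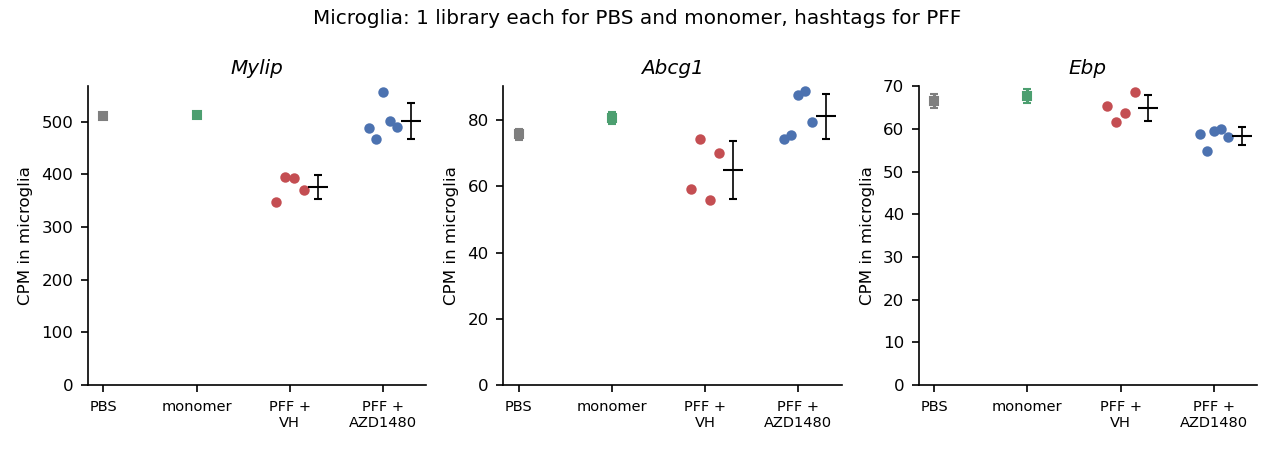
Level in CPM (vertical axis) of Mylip, Abcg1 and Ebp in microglia. Squares are the PBS and monomer libraries with the Poisson 95% interval, which covers counting error only, and points are the hashtags of both PFF libraries with their mean ± SD. Mylip in PFF + VH lies below the other 3 groups.

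The 28 genes not called in microglia had log2 fold changes between -0.80 (Nr1h3, adjusted p = 0.087) and 0.26 (Acaca, acetyl-CoA carboxylase, adjusted p = 0.100) in edgeR's quasi-likelihood test (Benjamini-Hochberg). Mvk, the mevalonate kinase, was nearest to the threshold at -0.46 (adjusted p = 0.052 in that edgeR test). With no filter on low counts it was at 0.0555 with scaling from the filtered genes and at 0.0499 with scaling from all genes. It was also called by DESeq2 (0.0438), with MULTIseqDemux hashtag calls (0.0397), without cells with oligodendrocyte UMIs (0.0360) and without PFF + AZD1480 hashtag 5 (0.00574), the highest hashtag of that library for Mvk. By role, 1 of 17 sterol enzymes (Ebp), 2 of 6 LXR and transport genes (Mylip and Abcg1), and none of the 5 sensors and 3 fatty acid enzymes passed.

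In border macrophages, none of the 31 genes was called for AZD1480 against vehicle in the filtered fit, and Srebf2 was called, as higher, once the filter was left out. With the filter, 2654 genes were tested and 0.113% were called. Of the 31 genes 4 were tested and none was called: Srebf2 with a log2 fold change of 1.77 (SE 0.37, adjusted p = 0.058), Ebp -0.60, Soat1 -0.04 and Mylip -0.42, by edgeR's quasi-likelihood test (Benjamini-Hochberg). At an unadjusted p under 0.05, where 9.65% of all genes lay, Srebf2 was the 1 of these 4, and DESeq2 called none of them. The hashtag groups of Srebf2, given above, did not overlap (29.3 ± 7.22 CPM, SD, n = 4, against 99.3 ± 23.6 CPM, SD, n = 5), as was so for 1.62% of all genes in that direction. Those of Ebp did not overlap in the other direction (73.1 to 117 CPM in PFF + VH, 50.5 to 71.8 CPM in PFF + AZD1480), as was so for 2.22% of all genes. The Srebf2 values rest on 14 UMIs under vehicle and 75 under AZD1480. Srebf2 passed the filter through PFF + AZD1480 hashtags alone and Ebp through PFF + VH hashtags alone, the group where each was high. Such a filter favours genes whose groups lie apart, so the lack of overlap is no support for a difference. The shares of all genes carry the same filter.

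With no filter, 0.277% of 14465 genes were called higher and 0.263% lower. Srebf2 was then called (log2 fold change 1.77, SE 0.43, adjusted p = 0.0108 by edgeR's quasi-likelihood test (Benjamini-Hochberg)), but not under the stricter class rule, nor without hashtag 2 of PFF + VH or hashtag 5 of PFF + AZD1480, where its log2 fold change was 1.56, 1.53 and 1.64. None of the other 30 genes was called. In all, 23 of the 31 had a fitted value above 0 and 8 below, and 7 had an unadjusted p under 0.05, where 6.51% of all genes lay. Sqle had a fitted log2 fold change of 3.08 (adjusted p = 0.284) and Stard4 of 2.75 (adjusted p = 0.160), both against PFF + VH hashtags mostly at 0, so neither value is a bound. For Cyp51 the value was 1.42 (adjusted p = 0.509), for Idi1 1.14 and for Abcg1 -1.16 (adjusted p = 0.689 for each) in the same edgeR test with Benjamini-Hochberg adjustment.

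**Figure D4:**
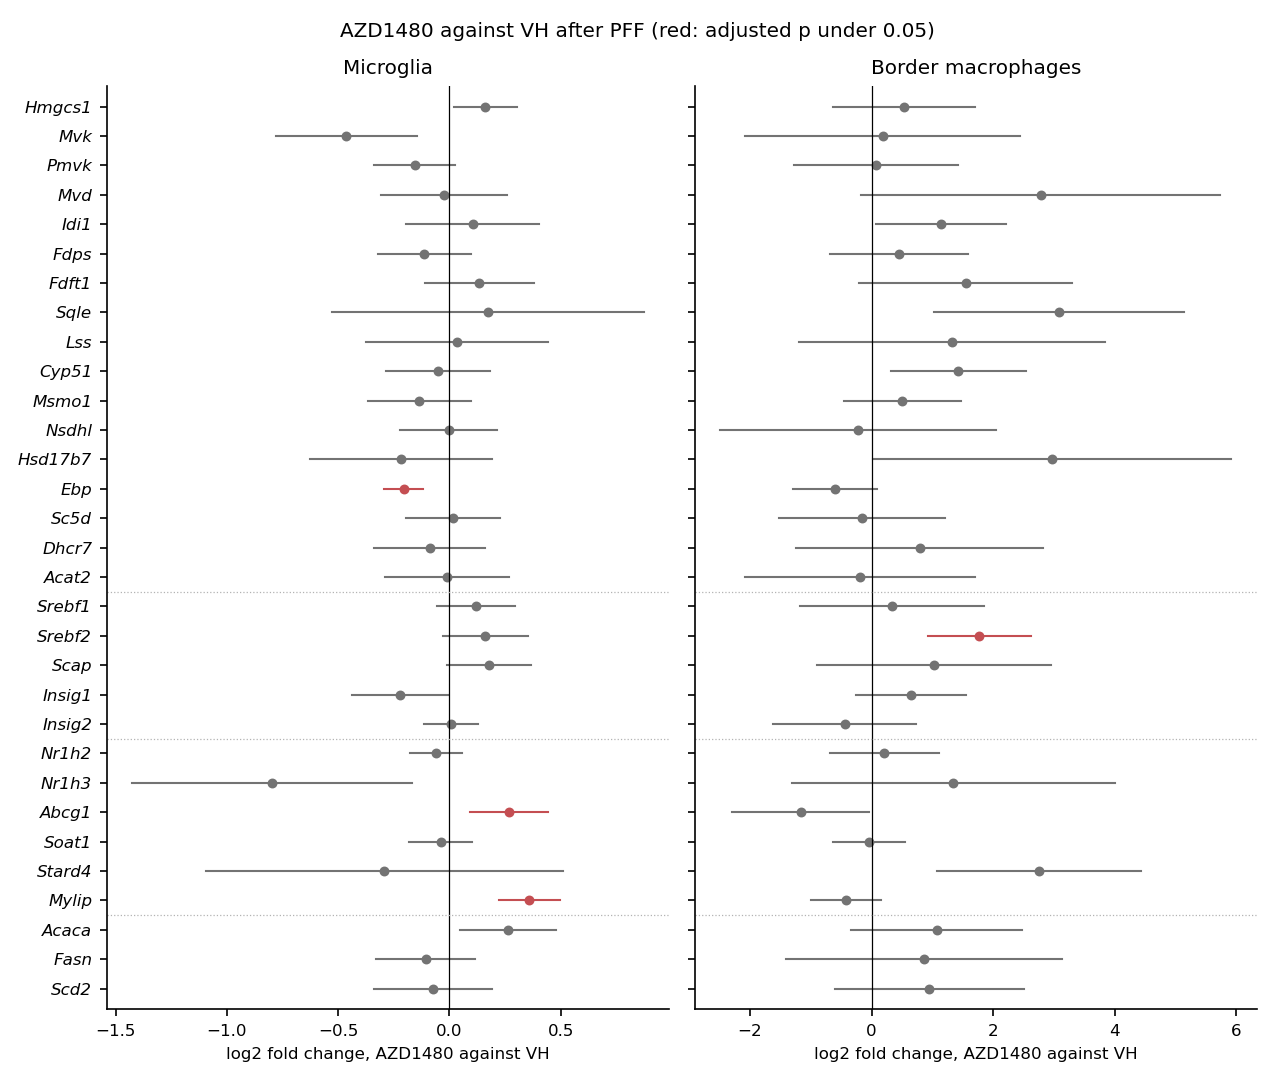
Log2 fold change of PFF + AZD1480 against PFF + VH with its 95% interval (horizontal axis) for the 31 genes (vertical axis), in microglia from the filtered fit and in border macrophages from the fit with no filter. Red marks an adjusted p under 0.05: Mylip, Abcg1 and Ebp in microglia and Srebf2 in border macrophages.

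Summed over all border macrophages of a library, hashtag calls aside, the same genes could be set beside PBS and monomer. Srebf2 held 47.9 CPM in PBS and 60.6 in monomer, against 26.7 with PFF + VH (Poisson 95% interval 15.8 to 42.2) and 84.1 with PFF + AZD1480 (68.9 to 102). Stard4 held 26.5, 19.0, 5.94 and 34.9 CPM in that order, with intervals of 1.62 to 15.2 for PFF + VH and 25.4 to 46.9 for PFF + AZD1480. PFF + VH was the lowest library for both, and its interval did not meet that of PFF + AZD1480. Idi1 held 29.1, 20.2, 16.3 and 41.3 CPM, with intervals of 20.2 to 40.7 in PBS and 30.8 to 54.1 in PFF + AZD1480, which overlap. Sqle held 11.98, 9.51, 2.97 and 16.7 CPM, and Insig1 47.9, 24.97, 31.2 and 65.1 CPM. PFF + AZD1480 was the highest of the 4 libraries for all 5 of these genes. Not all of the 31 genes had this order: Hmgcs1 was highest in PBS (58.2 CPM) and Ebp in PFF + VH (89.0 CPM). Intervals cover counting error only.

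Of the 22 genes with at least 20 UMIs over both libraries, 11 were at least 1.5 times higher in border macrophages of PFF + AZD1480 than of PFF + VH and 1 was lower, against 11.1% and 10.8% of all genes. That limit is on the sum, and PFF + AZD1480 held 1260361 border macrophage UMIs against 673825. Sqle (21 against 2 UMIs), Stard4 (44 against 4), Idi1 (52 against 11) and Fdps (45 against 15) reached it in PFF + AZD1480 alone. So did Cyp51 (57 against 13), Srebf2 (106 against 18), Acaca (33 against 10) and Scd2 (22 against 6). Of the 11 higher genes, only Msmo1 (68 against 21) and Insig1 (82 against 21) reached 20 UMIs in both libraries. The count of 11 is therefore not free of this selection. The shares of all genes carry the same limit. The 11 were Idi1, Fdps, Fdft1, Sqle, Cyp51, Msmo1, Srebf2, Insig1, Stard4, Acaca and Scd2, and the 1 lower was Abcg1, at 0.401 times. Against monomer, PFF + AZD1480 had 10 of 23 genes higher and none lower, where 11.5% of all genes were higher and 8.31% lower. Against PBS it had 4 of 25 higher and 2 lower, where 7.78% of all genes were higher and 11.9% lower. PFF + VH had 1 of 19 higher and 7 lower than PBS (8.72% and 13.3% of all genes) and 2 of 17 higher and 3 lower than monomer (11.7% and 9.54%). Monomer itself had 1 of 20 higher and 7 lower than PBS (6.59% and 13.2%). These comparisons share libraries and are not independent of each other. Hsd17b7 and Mvd had no UMI in PFF + VH, where 3 counts would be 4.45 CPM, and 4.76 to 5.55 CPM in PFF + AZD1480.

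**Figure D5:**
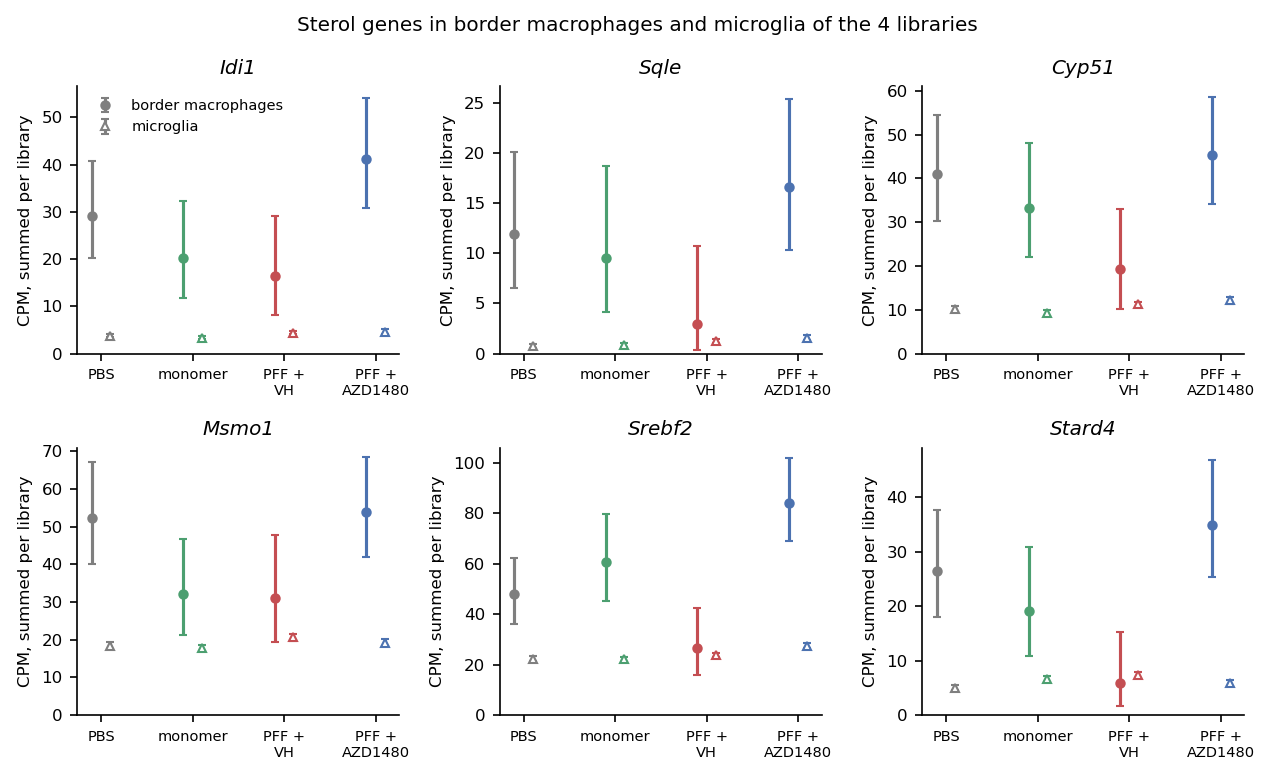
Level in CPM (vertical axis) of Idi1, Sqle, Cyp51, Msmo1, Srebf2 and Stard4 in each of the 4 libraries, with filled circles for border macrophages, open triangles for microglia and bars for the Poisson 95% interval. In border macrophages PFF + VH is the lowest library for each of these genes and PFF + AZD1480 the highest, while the highest and lowest microglial libraries differ by at most 2.06 times, for Sqle.

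The border macrophages of the libraries differed in other ways, of which only some set PFF + VH apart. Their median UMIs per cell were 5159 in PBS and 5444 in monomer, against 2532 with PFF + VH and 4986 with PFF + AZD1480, and Gm42418 was at 7695, 7777, 13679 and 9723 CPM. The share near the marker limits was 15.1%, 29.1%, 37.8% and 23.0%, and the microglial list was at 1856, 1600, 2278 and 1901 CPM. The PFF + VH border macrophages thus had the lowest depth, the highest Gm42418 and the most microglial RNA. Lyve1, a marker of perivascular macrophages, was at 492, 158, 239 and 717 CPM, and 4 MHC class II genes were at 13337, 26896, 10047 and 16006 CPM in sum. Neutrophil markers were at 337, 78.5, 153 and 1315 CPM, and monocyte markers at 164, 307, 582 and 248 CPM. Their part in the levels of the sterol genes was not tested, and with 1 library per condition, library and condition cannot be told apart.

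In lymphocytes, Mylip was the 1 gene of the 31 that passed the filter for AZD1480 against vehicle. Its log2 fold change was -0.33 (adjusted p = 0.761 by edgeR's quasi-likelihood test (Benjamini-Hochberg)), where 17 of 1983 genes tested, or 0.857%, were called. With no filter 30 of the 31 genes could be fitted, none was called and none had an unadjusted p under 0.05, against 0.687% and 6.75% of all genes, and DESeq2 called none. These sums rest on 77 lymphocytes with a single hashtag in PFF + AZD1480 and 163 in PFF + VH.

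Whether the effect of AZD1480 differed between classes was tested by an interaction term. For border macrophages minus microglia, 9 of 3921 genes (0.23%) were called and none of the 5 genes of the 31 that passed the filter, of which 3 had an unadjusted p under 0.05, where 8.72% of all genes lay. Srebf2 had a difference in log2 fold change of 1.56 (adjusted p = 0.187), Abcg1 of -1.60 (adjusted p = 0.340) and Mylip of -0.77 (adjusted p = 0.366) by edgeR's quasi-likelihood test (Benjamini-Hochberg). With no filter and scaling from all genes, Stard4 was the 1 of the 31 called (adjusted p = 0.0479 in that edgeR test). With scaling from the filtered genes none of the 31 was called, where 0.183% of all genes were, 7 had an unadjusted p under 0.05, against 3.51% of all genes, and Stard4 was nearest to the threshold (adjusted p = 0.068). The effects on Srebf2 and Mylip were thus not shown to differ between the classes. For lymphocytes minus microglia none of the 31 was called either, where 0.944% of all genes were called in the filtered fit and 0.287% with no filter, and 1 of the 5 tested had an unadjusted p under 0.05 in the filtered fit, where 10.2% of all genes lay. DESeq2 called none of the 31 in either interaction.

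A further 38 genes of the same pathways, in 3 lists, were followed for comparison: 13 of sterol synthesis and uptake, 15 of fatty acid synthesis and 10 LXR targets or sterol handling genes. In microglia, 33 passed the filter, and 4 were called higher with AZD1480 and 7 lower, where 12% of all genes tested were called higher and 14.2% lower. Ch25h, which makes 25-hydroxycholesterol, fell by 1.14 on the log2 scale and Npc2, which binds cholesterol in the lysosome, by 0.35. Nceh1, a cholesterol ester hydrolase, and Aacs, acetoacetyl-CoA synthetase, each rose by 0.43, and Elovl5, a fatty acid elongase, rose by 0.28. In border macrophages none of the 11 tested was called. Between border macrophages and microglia, 6 of 15 tested were called higher and 3 lower, where 26% and 25.2% of all genes were. Lbr, a sterol reductase of the nuclear envelope (1.32), and Acat1, a thiolase (1.12), were among the higher, and Lpcat3, a lysophospholipid acyltransferase (-2.04), and Lpl, lipoprotein lipase (-1.61), were among the lower. The list of LXR targets and sterol handling went both ways, with 3 higher and 3 lower of 8 tested. Between lymphocytes and microglia 3 of 15 were called higher and 10 lower, where 33.6% and 36.7% of all genes were.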

How the data were processed

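The authors sequenced 3′ gene expression libraries of sorted CD45+ cells, and the deposited files hold UMI counts per gene and cell, not normalized. Per the file headers the counts came from Cell Ranger 7.0.1 on mm10, while the study's methods name another release. Hashtag counts were deposited for the PFF libraries. Kept cells had 500 to 15000 counts, 250 to 5000 genes and no more than 10% mitochondrial UMIs, and doublets were not called beyond cells with several hashtags, which were left out of hashtag sums. A class needed at least 3 UMIs from 2 of its marker genes and 2 times the UMIs of every other list. Hashtags were called with HTODemux (Seurat 5.3.0).

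Counts were summed per class and hashtag (at least 10 cells) and tested with edgeR 4.0.16 in R 4.3.3: filterByExpr, TMM, the quasi-likelihood test and Benjamini-Hochberg adjustment over all genes tested, called at 0.05. The hurdle model over cells of the study's methods was not used. Libraries were compared by CPM with exact Poisson 95% intervals and no test. Other genes were held to a fold of 1.5 and at least 20 UMIs, limits set after the data were seen, as was the fit with no filter on low counts that takes its scaling from the filtered genes. Alternatives included DESeq2 1.42.0, other hashtag calls, other class and cell rules and leaving out each hashtag. The code was tested on simulated data.

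The genes, lists and tests were chosen with earlier results of these data known. All 31 genes are named, and hashtag values are given for those called for AZD1480 and for those called between classes in the filtered fit with a log2 fold change of at least 1 in size. Other hashtag values were added after they were seen. Same-numbered hashtags of the PFF libraries correlated between -0.07 and 0.12 in microglia, so the numbers were not taken to pair samples. No per-sample column was left unused.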

Additional observations from a re-analysis of the deposited data

Results flagged for a closer look

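Of 100 groups of 4 or 5 hashtags tested, 10 held 1 hashtag far from the others by Dixon's test, where chance gives about 1 in 20. That rate holds for normally distributed values, which small counts are not. All 31 genes were tested in microglia, but in border macrophages and lymphocytes only genes called against microglia. In microglia of PFF + VH, hashtag 1 held 8.06 CPM of Fdft1 against 5.95 to 5.998 in the others and 2.99 CPM of Hsd17b7 against 2.21 to 2.32, and hashtag 4 held 4.89 CPM of Fasn against 4.16 to 4.28 and 2.42 CPM of Lss against 1.77 to 1.87. In microglia of PFF + AZD1480, hashtag 3 held 5.69 CPM of Fdft1 against 7.37 to 7.97 and 1.03 CPM of Nr1h3 against 0.430 to 0.552. Hashtag 5 of the same library held 26.2 CPM of Insig2 against 29.7 to 30.5 and 8.37 CPM of Mvk against 4.49 to 5.27. In border macrophages of PFF + VH, hashtag 1 held 7.26 CPM of Sqle (1 UMI) and hashtag 4 held 21.3 CPM of Stard4 (2 UMIs), with the others at 0. Such a pattern passes Dixon's test whatever the value. Of the 5 genes of the 31 that could be tested for a difference of the AZD1480 effect between classes in the filtered fit, none passed.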

How the results depend on the processing

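For AZD1480 against vehicle in microglia, 2 to 4 of the 31 genes were called when each hashtag was left out (2752 to 3303 of all genes). Hashtag numbers shared between the PFF libraries do not pair samples. With the hashtag number as a replicate block, 4 of the 31 genes were called in microglia (3097 of all genes), with Mvk gained at an adjusted p of 0.0104, Insig1 gained at 0.0345 (log2 fold change -0.26) and Abcg1 lost at 0.0569 by edgeR's test, and none in border macrophages (2 of all genes) or lymphocytes (25 of all genes). The class fits with no replicate block called 4 of the 31 genes between border macrophages and microglia and 3 between lymphocytes and microglia. With the block, these fits called 51.2% and 70.3% of all genes.

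In border macrophages, AZD1480 against vehicle called 1 of the 31 genes with no filter, also with scaling from filtered genes and without cells with oligodendrocyte UMIs, against 0 in the filtered fit. All genes called were 3, against 77 with no filter, 78 with scaling from filtered genes, 17 by DESeq2, 1 with at least 1000 counts per cell, 1 under the stricter class rule, 18 without oligodendrocyte UMIs and 1 to 5 without 1 hashtag. With no filter and scaling from filtered genes, the 1 gene became 0 under the stricter rule and 0 to 2 without 1 hashtag. In lymphocytes all genes called were 17, against 91 and 97 with no filter, 11 with hashtags centred within cells, 10 under the stricter rule and 5 to 30 without 1 hashtag.

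Between border macrophages and microglia, 3 of the 31 genes were called (2008 of all), against 11 with no filter under either scaling (3475 and 3349 of all), 1 under the stricter rule (1182) and 1 with PFF + VH hashtags only (1184), and 2 to 3 without 1 hashtag. With no filter the 11 became 7 under the stricter rule (2166 of all), 2 with PFF + VH hashtags only (1712) and 9 to 12 without 1 hashtag (2833 to 3205), and Stard4 reversed to -0.94 with PFF + VH hashtags only. For lymphocytes the 3 genes (2757 of all) became 6 and 7 with no filter (6070 and 5714), 1 without oligodendrocyte UMIs and 1 with PFF + VH hashtags only. Without 1 hashtag, 2 to 3 were called. With no filter the 7 became 1 with PFF + VH hashtags only (3712 of all) and 4 to 10 without 1 hashtag (5218 to 5564).

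For the difference of the AZD1480 effect between border macrophages and microglia, 0 of the 31 became 1 with no filter and its own scaling, and 0 to 1 without 1 hashtag with scaling from filtered genes. All genes called were 9, against 51 and 44 with no filter, 1 by DESeq2, 1 with MULTIseqDemux, 14 with hashtags centred within cells, 5 with at least 1000 counts, 1 under the stricter rule and 4 to 13 without 1 hashtag. For lymphocytes they were 37, against 69 and 69, 23 by DESeq2, 5 with MULTIseqDemux, 1 under the stricter rule and 14 to 40 without 1 hashtag.

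Between libraries, the 1 gene at least 1.5 times higher in microglia of PFF + VH than of monomer became 2 with TMM, 2 without Gm42418 and mitochondrial counts and 0 without oligodendrocyte UMIs, and the 1 lower in PFF + AZD1480 than PFF + VH became 0 without oligodendrocyte UMIs. In border macrophages of these 2 libraries the 1 lower became 2 in each of the last 2 settings and under the stricter rule. In lymphocytes of PFF + VH against monomer, without oligodendrocyte UMIs, 4 higher became 2 and 3 lower became 5. The cause was not tested for any of these. Few border macrophages and lymphocytes per hashtag limit what their sums can show.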
